A study of Mus musculus with 20 samples.

Results

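Cidec and 9 other genes of the lipid droplet were examined in mouse liver, 10 of the 18193 genes that the array table names by a probe set with 1 gene symbol. They are the CIDE genes Cidec, Cidea and Cideb, the perilipin genes Plin2, Plin4 and Plin5, the lipase genes Pnpla2 and Mgll, and the lipase inhibitor genes G0s2 and Hilpda. Each gene was read from its brightest such probe set. The genes were chosen by their log2 values in all 4 groups, and by the difference in LPS response between genotypes, which were already known. Their differences are therefore descriptions, given as values with standard errors and without p-values.

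The liver RNA came from 20 male mice, 1 array per mouse, on a mixed BL6/SV129 background and 50 to 60 days old. There were 5 MCAD-/- mice given lipopolysaccharide (LPS), 5 MCAD-/- mice given vehicle, 5 wild type mice given LPS and 5 wild type mice given vehicle. LPS is a bacterial cell wall component that provokes systemic inflammation, and the dose was 100 µg per 20 g of body weight. All 4 groups were then fasted for 12 h, so a difference from the fed state cannot be read from these arrays. MCAD is medium-chain acyl-CoA dehydrogenase, an enzyme of mitochondrial fatty acid oxidation encoded by Acadm. Per the labels the replicates are biological, with litters not given in the sources used here, and whole liver was used, so fewer cells of a type and less RNA per cell cannot be told apart.

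A lipid droplet is a store of triglyceride and sterol ester wrapped in a phospholipid monolayer and coat proteins. Perilipins sit on that surface and regulate access of lipases, while CIDE proteins gather at contacts between droplets, where Cidec (also called Fsp27) moves lipid into the larger droplet. Pnpla2 (adipose triglyceride lipase, ATGL) starts triglyceride breakdown, Mgll completes it by cleaving monoacylglycerol, and G0s2 and Hilpda bind and inhibit Pnpla2. Fasting brings fatty acids from adipose tissue to the liver, where they are oxidised or stored in droplets, and several droplet genes are targets of the fatty acid receptor PPARalpha.

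Levels are given in units of GCRMA intensity on a linear scale. GCRMA corrects probe background and pulls dim probe sets towards a floor, and 16 units served as the limit below which a reading was treated as dim. Differences are on the log2 scale with their standard error (SE) from 1 limma fit of the 4 groups, with 5 mice in each. In a group where all 5 mice read below 16 units, the fold was computed against 16 units and is written as "at least". A gene was tested when it exceeded 16 units on at least 5 arrays, which 8774 genes did. The threshold was a Benjamini-Hochberg adjusted p of 0.05 over these 8774 genes. Of the 10 droplet genes 9 were tested, and Cidea was not.

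The arrays held 45101 probe sets, and between 30.27% and 32.36% of them read above 16 units on each array. Acadm checked the genotype labels: it ranged over 14.3 to 218 units in MCAD-/- LPS, 9.03 to 80.2 in MCAD-/- vehicle, 1450 to 2375 in wild type LPS and 3106 to 4022 units in wild type vehicle mice. All 8 hepatocyte markers, among them albumin, were above 16 units on at least some arrays (Ass1 on 10 of the 20), and their summed level lay between 96376 and 99057 units in MCAD-/- LPS, 114485 and 124262 in MCAD-/- vehicle, 97745 and 101925 in wild type LPS and 113925 and 121546 units in wild type vehicle mice. The sum of 8 neutrophil genes, of which 4 were above 16 units on any array, ranged over 2742 to 3270 units in MCAD-/- LPS, 35.4 to 209 in MCAD-/- vehicle, 1865 to 3962 in wild type LPS and 39.0 to 112 units in wild type vehicle. Their part in the LPS differences below was not tested. A few mice stood apart in readings that touch the droplet genes. Wild type LPS replicate 5 had Adipoq, the adipocyte hormone adiponectin, at 19.8 units against at most 3.49 units on any other array. A high ratio of 3' to 5' actin probe sets is a sign of less intact RNA. In this ratio wild type vehicle replicate 3 had 3.18 on the log2 scale, where its group had a median of 1.86. Wild type LPS replicate 4 had 3.69, where its group had a median of 1.61.

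Cidec separated wild type LPS mice from all others. Its probe set read 42.1, 11.5, 20.1, 8.29 and 11.2 units in the MCAD-/- LPS mice, replicates 1 to 5. The MCAD-/- vehicle mice read 5.75, 5.75, 8.81, 6.10 and 7.08 units. The wild type LPS mice read 436, 532, 361, 472 and 381 units, and the wild type vehicle mice 6.02, 9.14, 13.8, 8.33 and 10.4 units. The lowest wild type LPS mouse was far above the highest mouse of the other groups, which overlapped one another along the order MCAD-/- LPS, wild type vehicle, MCAD-/- vehicle. With LPS, the Cidec difference between MCAD-/- and wild type mice was -4.80 on the log2 scale (SE 0.31, 95% interval -5.45 to -4.14), 27.8-fold lower in MCAD-/-. This fold depends on the floor, since 3 of the 5 MCAD-/- LPS mice read below 16 units. With vehicle the genotype difference was -0.48 (SE 0.31), with every mouse of both genotypes below 16 units.

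LPS against vehicle gave a Cidec difference of 5.56 (SE 0.31) in wild type mice, at least 27.0-fold higher. In MCAD-/- mice it was 1.23 (SE 0.31), with groups that overlapped. All 5 MCAD-/- vehicle mice and 3 of the 5 MCAD-/- LPS mice read below 16 units, so no fold is given for MCAD-/-. The difference between these responses, MCAD-/- less wild type, was -4.32 (SE 0.44, 95% interval -5.25 to -3.40). Cidec exceeded 16 units on 7 arrays, 5 of them wild type LPS, so it entered the test through the group in which it is high. On a log2(value + 16) scale, which damps dim readings, the genotype difference with LPS was -3.77, the wild type response 4.14, the MCAD-/- response 0.53 and their difference -3.61. Leaving out each of the 20 mice in turn gave genotype differences with LPS between -5.16 and -4.57 and differences between responses from -4.68 up to -4.10.

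Cidec lies on chromosome 6, at chr6:113424634-113435760 on the minus strand (RefSeq, GRCm38.p6). Of the other genes, RefSeq places G0s2 at chr1:193272160-193273188, Plin2 at chr4:86626910-86670217, Hilpda at chr6:29272488-29275449, Mgll at chr6:88724412-88828360, Pnpla2 at chr7:141455188-141460743 and Cideb at chr14:55754052-55758424. The array's own build is not stated in the labels, so these coordinates come from RefSeq alone. RefSeq promoter windows were matched to 9 of the 10 genes, Cidea being the exception, with 13 windows in all. Each was cut to the 250 bases before a start site and searched on both strands for AGGTCA, whose reverse complement is TGACCT, the core motif of many nuclear receptors including PPARalpha. AGGTCA was in 14.02% of 32851 such windows over all genes. It was found upstream of Plin2 and Plin5 and in neither of the 2 Cidec windows. The 3 sequences are printed here because Cidec and Plin2 both read higher with LPS in wild type mice, and because Plin5 is the other gene with the motif. They run 5′ to 3′ on the minus strand, are limited to bases outside the annotated gene, and carry the motif in capitals.
Cidec, chr6:113435761-113436010: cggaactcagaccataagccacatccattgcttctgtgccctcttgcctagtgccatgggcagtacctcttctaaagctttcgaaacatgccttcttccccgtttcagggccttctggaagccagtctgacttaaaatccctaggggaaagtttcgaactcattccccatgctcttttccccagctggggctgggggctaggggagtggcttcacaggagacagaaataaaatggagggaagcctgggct
Plin2, chr4:86670218-86670309: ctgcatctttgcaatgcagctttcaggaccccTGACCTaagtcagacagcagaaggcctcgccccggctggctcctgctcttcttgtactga
Plin5, chr17:56117607-56117798: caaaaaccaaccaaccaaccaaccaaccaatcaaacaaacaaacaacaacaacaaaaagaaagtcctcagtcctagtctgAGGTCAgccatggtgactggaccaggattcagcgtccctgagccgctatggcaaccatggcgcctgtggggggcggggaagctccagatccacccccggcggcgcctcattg
The Plin2 match begins 218 bases upstream of the listed start and reads TGACCT on the printed strand, while the Plin5 match begins 170 bases upstream. A match of letters in such a window is a description and not a binding site.

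Another 3 motifs were searched in the same windows, each on both strands. CACGTG, the E-box bound by basic helix-loop-helix factors, was in 6.021% of all windows and upstream of Mgll. TGACG, the core of the cAMP response element, was in 17.77% and upstream of G0s2 and Hilpda. TATAAA, the letters of the TATA box, was in 12.37% and upstream of Cideb, where the match begins 172 bases before the listed start. None of them was in the Cidec windows.

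**Figure D1:**
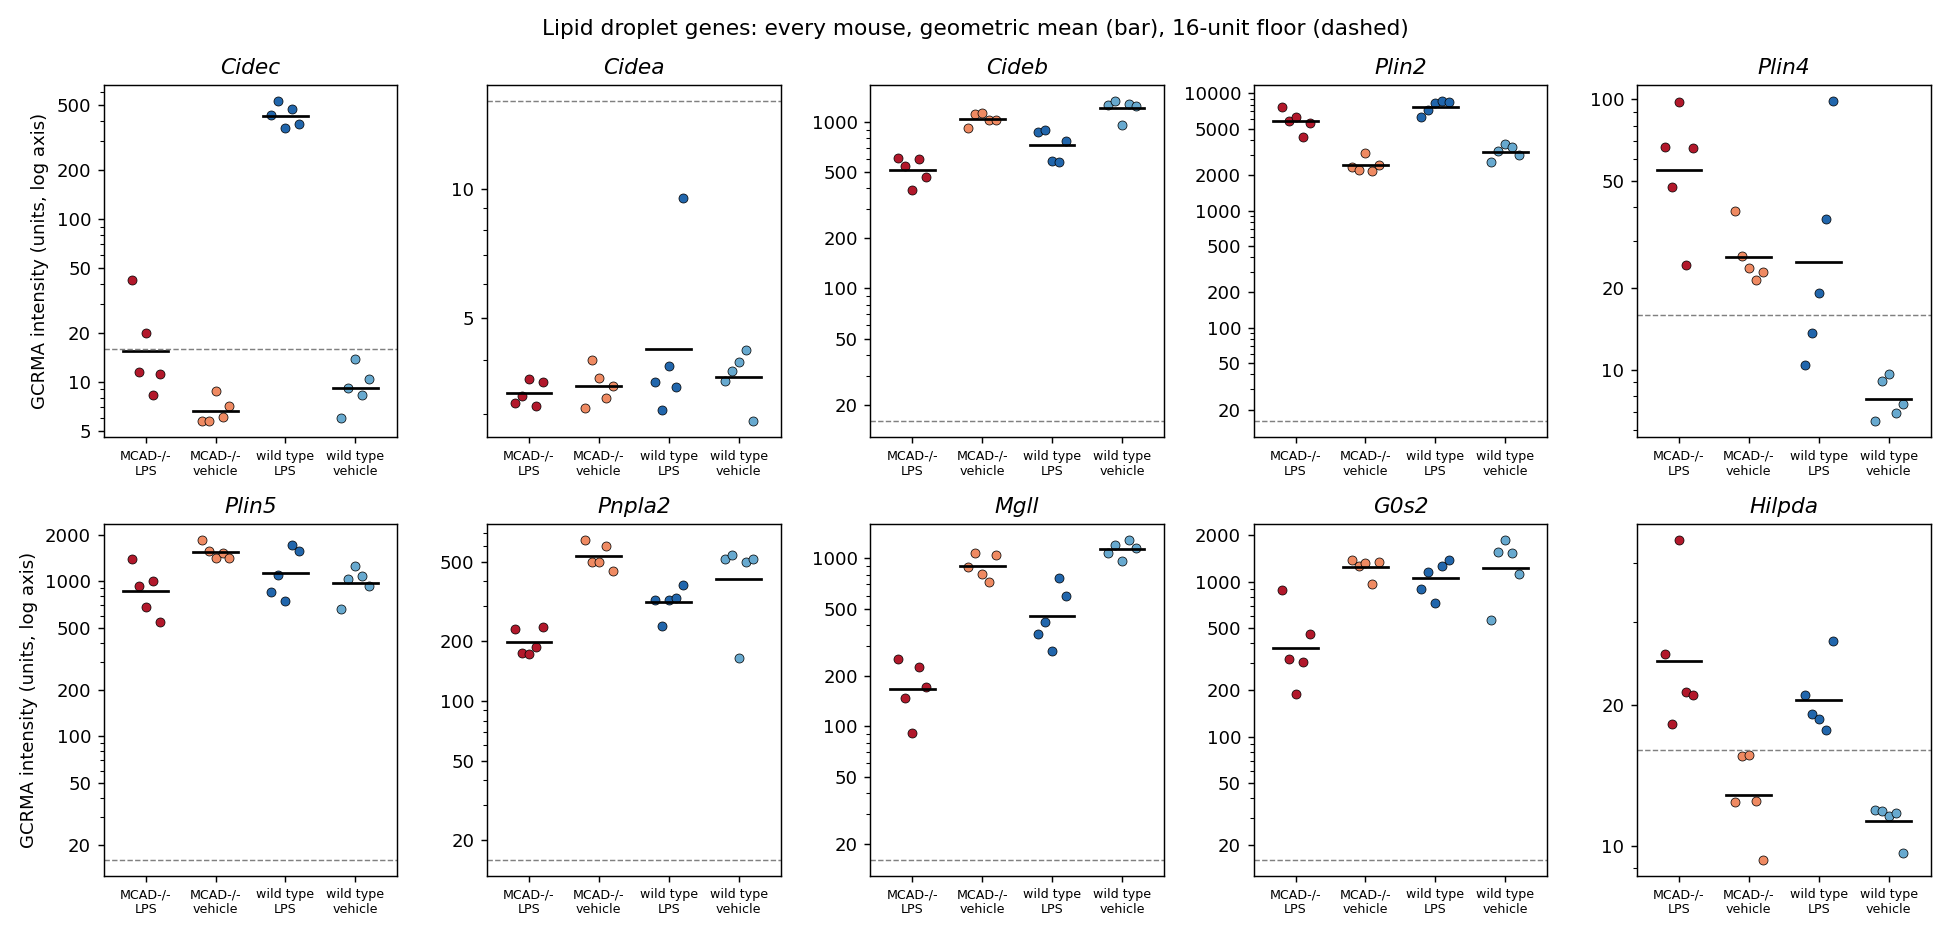
GCRMA intensity (units, log axis, scaled separately per gene) of the 10 droplet genes in every mouse, with 5 mice per group. Points are mice, bars are geometric means and the dashed line is the 16-unit limit. Cidec lies between 361 and 532 units in wild type LPS mice and at 42.1 units or below elsewhere.

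Cidea, a CIDE gene better known from brown fat, was at the floor of the array in nearly every mouse. It ranged over 3.13 to 3.61 units in MCAD-/- LPS, 3.08 to 3.99 in MCAD-/- vehicle, 3.06 to 9.49 in wild type LPS and 2.88 to 4.22 units in wild type vehicle mice. The value of 9.49 units belonged to wild type LPS replicate 5, and the next highest mouse of that group read 3.87 units. All values lay below 16 units, so no fold is given.

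Cideb, the CIDE gene of the liver with a known role in VLDL lipidation, was lower with LPS in both genotypes. It read 610.5, 545, 388, 596 and 469 units in MCAD-/- LPS and 916, 1108, 1134, 1023 and 1025 units in MCAD-/- vehicle mice. Wild type LPS mice read 867, 895, 585, 578 and 767 units, against 1266, 1337, 959, 1283 and 1242 units with vehicle. The LPS and vehicle groups did not overlap in either genotype, with differences of -1.01 in MCAD-/- and -0.74 in wild type (SE 0.15 each). The lowest wild type mice, vehicle replicate 3 and LPS replicate 4, were the arrays with the high actin ratios. Leaving out each mouse in turn gave wild type differences between -0.82 and -0.65. Between genotypes the difference was -0.50 with LPS and -0.22 with vehicle (SE 0.15), and the mice overlapped under both injections. The difference between the 2 responses was -0.28 (SE 0.21). Cideb thus read lower with LPS in the wild type mice in which Cidec read higher.

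Plin2, the perilipin that coats most droplets of the hepatocyte, was higher with LPS in both genotypes. It read 7619, 5804, 6312, 4211 and 5553 units in MCAD-/- LPS and 2372, 2213, 3089, 2188 and 2441 units in MCAD-/- vehicle mice. The readings were 6313, 7158, 8185, 8606 and 8418 units in wild type LPS mice, against 2594, 3249.9, 3686, 3459 and 2982 units in wild type vehicle mice. Every LPS mouse was above every vehicle mouse of its genotype, by 1.25 in MCAD-/- (2.37-fold) and 1.28 in wild type (2.42-fold, SE 0.15 each). The difference between these responses was -0.03 (SE 0.21, 95% interval -0.46 to 0.40), an interval that leaves room for a response up to 0.46 smaller or 0.40 larger on the log2 scale. Between genotypes Plin2 differed by -0.41 with LPS and -0.38 with vehicle (SE 0.15), neither past the threshold and both with overlapping mice. The LPS difference passed it on the log2(value + 16) scale, with a filter of 64 units and with the mean of all probe sets. It also passed without MCAD-/- LPS replicate 1, MCAD-/- vehicle replicate 3, wild type LPS replicate 1, or wild type vehicle replicate 1 or 3. The vehicle difference passed without MCAD-/- vehicle replicate 3 or wild type vehicle replicate 1.

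Plin4, a perilipin of small nascent droplets best known from adipocytes, was dim and exceeded 16 units on 13 of the 20 arrays. No wild type vehicle mouse was among them, so Plin4 entered the test through the groups in which it is higher. It read 66.7, 47.5, 97.9, 24.5 and 66.1 units in MCAD-/- LPS and 38.7, 26.3, 23.8, 21.6 and 23.0 units in MCAD-/- vehicle mice. Wild type LPS mice read 10.4, 13.7, 19.2, 36.3 and 98.7 units, and wild type vehicle mice 6.47, 9.06, 9.66, 6.91 and 7.46 units. With vehicle every MCAD-/- mouse was above every wild type mouse, by 1.74 (SE 0.45), at least 1.63-fold. With LPS the genotypes overlapped, with a difference of 1.14 (SE 0.45). It was short of the threshold, which it passed without wild type LPS replicate 5 or without MCAD-/- LPS replicate 4. LPS against vehicle gave 1.08 in MCAD-/- and 1.68 in wild type, at least 1.56-fold in the wild type mice.

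The widest spread of Plin4 was among the wild type LPS mice, and its highest reading of 98.7 units came from replicate 5, the mouse with 19.8 units of Adipoq and the highest Cidea. In that mouse Ucp1, a gene of brown fat, read 9.30 units against at most 6.01 units elsewhere, while Cidec read 381 units, within the range of its group. Of the 9 adipocyte markers chosen, 7 were in the table and 3 exceeded 16 units on any array: Fabp4 on 17 arrays, Lipe on 3 and Adipoq on 1. Without Fabp4, their summed level ranged over 25.1 to 29.4 units in MCAD-/- LPS, 30.2 to 39.1 in MCAD-/- vehicle, 30.3 to 58.9 in wild type LPS and 27.8 to 36.6 units in wild type vehicle. Retn, Lep and Adig stayed below 16 units on all arrays, at most 6.28, 3.61 and 5.87 units. Leaving out wild type LPS replicate 5 moved the Plin4 genotype difference with LPS to 1.63, its wild type LPS response to 1.18 and the difference between responses to -0.11, where all 20 mice gave 1.14, 1.68 and -0.60. Whether adipose tissue in that sample bears on the reading was not tested.

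Plin5, the perilipin of oxidative tissues that ties droplets to mitochondria, had genotype differences of opposite sign under the 2 injections. It read 1393, 933, 682, 996 and 543 units in MCAD-/- LPS and 1852, 1569.5, 1407, 1509.6 and 1406 units in MCAD-/- vehicle mice. The readings were 847, 1101, 744, 1716 and 1563 units in wild type LPS mice, against 664, 1032, 1253, 1079 and 928 units in wild type vehicle mice. The MCAD-/- vehicle mice were all above the wild type vehicle mice, a difference of 0.67 (SE 0.25) that did not pass the threshold over all genes. With LPS the genotypes overlapped, at -0.39 (SE 0.25). LPS against vehicle gave -0.84 in MCAD-/- mice (1.78-fold lower, no overlap) and 0.22 in wild type mice. The responses differed, MCAD-/- less wild type, by -1.06 (SE 0.35, 95% interval -1.78 to -0.33), not past the threshold. The other probe set of Plin5 gave 0.60 with vehicle, -0.49 with LPS, and -1.10 for the difference between responses. Plin5 and Plin4 are neighbours on chromosome 17, at chr17:56111597-56117606 and chr17:56100587-56109948 (RefSeq, GRCm38.p6), and their values ran differently across the groups.

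**Figure D2:**
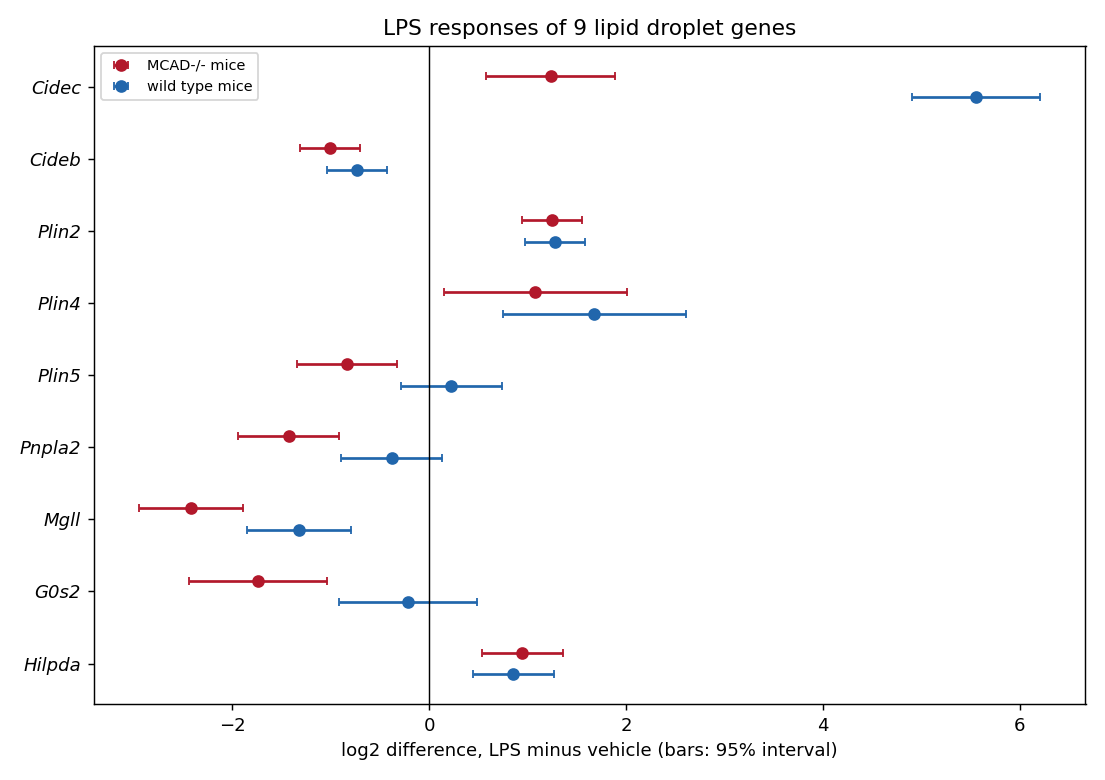
Difference between LPS and vehicle (log2, x axis) for the 9 tested droplet genes, in MCAD-/- (red) and wild type mice (blue). Points are limma estimates over 5 mice per group and bars are 95% intervals. The intervals of the genotypes overlap for Cideb, Plin2, Plin4 and Hilpda. They do not for Cidec, Plin5, Pnpla2, Mgll and G0s2, of which only Cidec had a difference between responses past the threshold. Cidec is at 1.23 in MCAD-/- and 5.56 in wild type mice.

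Pnpla2, the lipase that takes the opening step of triglyceride breakdown, was lowest in MCAD-/- mice given LPS. It read 231, 175, 172, 186 and 236 units in MCAD-/- LPS and 647, 499.5, 499, 601 and 448 units in MCAD-/- vehicle mice. Wild type LPS mice read 324, 239, 323, 331 and 384 units, and wild type vehicle mice 519, 541, 165, 501 and 515 units. LPS against vehicle gave -1.43 (SE 0.25) in MCAD-/- mice, 2.69-fold lower with no overlap. In wild type mice it gave -0.38 (SE 0.25), with 1 vehicle mouse below all LPS mice. That mouse was wild type vehicle replicate 3, the array with the high actin ratio, and without it the wild type response was -0.71 and the difference between the responses -0.72 in place of -1.05 (SE 0.35). The genotypes did not overlap with LPS, at -0.68 (SE 0.25), short of the threshold, which it passed with only the groups compared, with the replicate number as a block, and without wild type vehicle replicate 3 or wild type LPS replicate 2. With vehicle the genotype difference was 0.37, or 0.04 without replicate 3 of the wild type vehicle group.

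Mgll, the monoglyceride lipase at the end of the same path, was lower with LPS in both genotypes and lower in MCAD-/- than in wild type mice given LPS. It read 251, 148, 91.3, 225 and 173 units in MCAD-/- LPS and 884, 1075, 804, 725 and 1055 units in MCAD-/- vehicle mice. The readings were 355, 419, 283, 764 and 599 units in wild type LPS mice, against 1078, 1197, 969.7, 1294 and 1157 units in wild type vehicle mice. The order was wild type vehicle, MCAD-/- vehicle, wild type LPS and MCAD-/- LPS, and only the neighbours among vehicle mice, and MCAD-/- vehicle with wild type LPS, overlapped. Of the wild type LPS mice only replicate 4, the array with the actin ratio of 3.69, reached the MCAD-/- vehicle range, at 764 units. LPS against vehicle gave -2.42 in MCAD-/- (5.37-fold lower) and -1.32 in wild type mice (2.50-fold lower, SE 0.25 each). Between genotypes the difference was -1.44 with LPS (2.71-fold lower) and -0.34 with vehicle. The responses differed, MCAD-/- less wild type, by -1.10 (SE 0.36, 95% interval -1.85 to -0.35), not past the threshold. Of the 4 Mgll probe sets another was above 16 units on all 20 arrays and gave a genotype difference with LPS of -1.34, and another, above 16 units on 19 arrays, gave -2.05.

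G0s2, an inhibitor of Pnpla2, was lowest in MCAD-/- mice given LPS. It read 889, 319.6, 187, 303 and 457 units in MCAD-/- LPS and 1391, 1275, 1320.0, 965 and 1346 units in MCAD-/- vehicle mice. Wild type LPS mice read 899, 1156, 727, 1269.8 and 1393 units, against 566, 1548, 1873, 1532 and 1129.8 units with vehicle. LPS against vehicle gave -1.74 (SE 0.34) in MCAD-/- mice, 3.33-fold lower with no overlap, and -0.22 in wild type mice. With LPS the genotype difference was -1.50 (SE 0.34), 2.83-fold lower, and MCAD-/- LPS replicate 1 at 889 units overlapped the wild type range. The responses differed, MCAD-/- less wild type, by -1.52 (SE 0.47, 95% interval -2.51 to -0.53), not past the threshold with all 20 mice and past it without MCAD-/- LPS replicate 1, at -1.83. Pnpla2 and its inhibitor G0s2 thus both read lowest in the MCAD-/- LPS mice.

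Hilpda, an inhibitor of Pnpla2 that hypoxia and fatty acids induce, was dim and slightly higher with LPS in both genotypes. It read 25.6, 18.2, 44.8, 21.3 and 21.0 units in MCAD-/- LPS and 12.4, 15.5, 15.6, 12.5 and 9.36 units in MCAD-/- vehicle mice. The readings were 21.0, 19.1, 18.7, 17.6 and 27.3 units in wild type LPS mice, against 12.0, 11.9, 11.6, 11.8 and 9.67 units in wild type vehicle mice. All 10 LPS mice were above 16 units and all 10 vehicle mice below it, so the folds are bounds, at least 1.55-fold in MCAD-/- and at least 1.28-fold in wild type mice. Hilpda thus entered the test only through the LPS groups, in which it is higher. The fitted responses were 0.95 in MCAD-/- and 0.85 in wild type (SE 0.20 each), and their difference 0.09 (SE 0.28). Between genotypes Hilpda differed by 0.27 with LPS and 0.18 with vehicle, with overlapping mice.

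**Figure D3:**
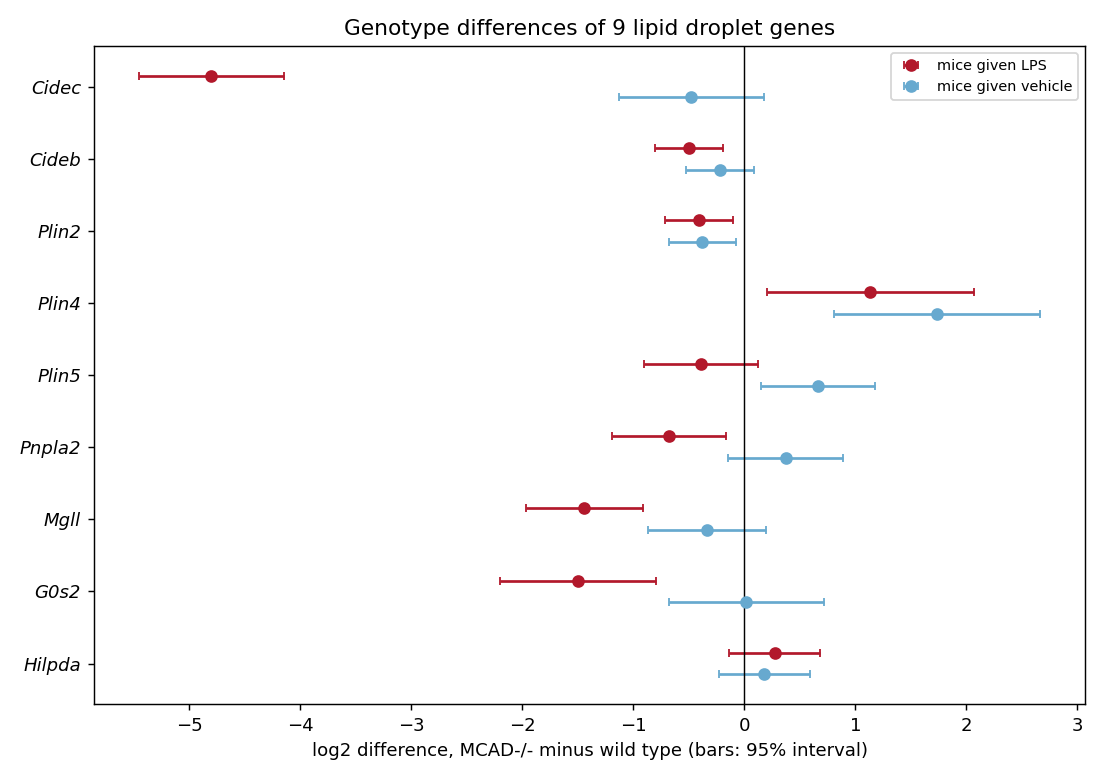
Difference between MCAD-/- and wild type mice (log2, x axis) for the 9 tested droplet genes, in mice given LPS (red) and vehicle (light blue). Points are limma estimates over 5 mice per group and bars are 95% intervals. With LPS, Cidec is at -4.80, Mgll at -1.44 and G0s2 at -1.50, while Plin4 is above 0 under both injections.

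Counted together, 4 of the 9 tested droplet genes were past the threshold between genotypes with LPS, all lower in MCAD-/- (Cidec, Cideb, Mgll and G0s2), beside 20.6% of all tested genes in either direction and 11.8% lower. The Cideb call was lost with only the groups compared and without MCAD-/- LPS replicate 3, wild type LPS replicate 1 or wild type LPS replicate 2. With vehicle it was 1 of 9, Plin4, which was higher in MCAD-/-, beside 16.2% in either direction and 9.81% higher. LPS against vehicle took all 9 past the threshold in MCAD-/- mice, 4 higher and 5 lower, beside 65.7% of all tested genes. Among the 4 higher, Cidec and Hilpda read below 16 units in every MCAD-/- vehicle mouse, and Cidec also in 3 of the 5 MCAD-/- LPS mice. Plin4 lost this call with no filter, with centring, with quantile normalization and in 7 of the 20 fits that left out 1 mouse. In wild type mice it took 6 past, 4 higher and 2 lower, beside 64%. The LPS response differed between genotypes past the threshold for 1 of 9, Cidec, beside 4.11%. Leaving out 1 mouse brought this last count to 3 without MCAD-/- LPS replicate 1 or wild type LPS replicate 3 and to 2 without wild type vehicle replicate 3, and the vehicle count to 2 without MCAD-/- vehicle replicate 3 or wild type vehicle replicate 1. Between genotypes with LPS the mice did not overlap for 3 genes, all lower in MCAD-/-, beside 12.8% of all tested genes (5.44% higher, 7.36% lower). With vehicle this held for 2, both higher in MCAD-/-, beside 13.8% (7.68% higher, 6.11% lower). Between LPS and vehicle it held for 7 in MCAD-/- mice, 2 higher and 5 lower, beside 51.4% (29.6% higher, 21.7% lower). In wild type mice it held for 6, 4 higher and 2 lower, beside 46.1% (28.9% higher, 17.3% lower). The median difference over the 9 genes was -0.50 between genotypes with LPS and 0.02 with vehicle, where all tested genes had medians of -0.03 and 0.04. It was -0.84 for LPS in MCAD-/-, 0.22 for LPS in wild type and -1.05 for the difference between responses, where all tested genes had 0.14, 0.18 and -0.07. These contrasts chose the genes, and Cidec, Plin4 and Hilpda entered the test through groups in which they read higher. Nothing is therefore read from the counts.

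After the group means were subtracted, the mouse to mouse variation of some of these genes ran together across the 20 arrays. Pearson's r was 0.73 for Cidec with Plin2, 0.70 for Cidea with Plin4, 0.68 for Plin5 with G0s2, 0.67 for Plin5 with Mgll and 0.62 for Mgll with G0s2. These values describe 20 arrays that share their normalization, and those with Cidec and Cidea draw on dim readings, as Cidec was below 16 units on 13 arrays and Cidea on all 20. The Cidea value draws on wild type LPS replicate 5 too. The values given are the highest among all pairs of the 10 genes, and the lowest was -0.44 for Cideb with Plin4.

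The genes whose level was most like Cidec across all 20 arrays, by Pearson's r of log2 values, were Igdcc4 (0.96), Dntt (0.95), Cfap300 (0.93), Tmem82 (0.93), Spats2l (0.93), Gfer (0.93), Cgref1 (0.92) and Phlda3 (0.92). Igdcc4, a cell surface protein of the immunoglobulin superfamily, averaged 10.1 units in MCAD-/- LPS, 3.41 in MCAD-/- vehicle, 75.6 in wild type LPS and 3.49 units in wild type vehicle mice. Tmem82, a transmembrane protein, was above 16 units on all 20 arrays, with 87.2, 36.5, 277 and 52.3 units in the same order of groups. Phlda3, a target of p53, averaged 19.8, 9.12, 90.7 and 7.13 units in that order of groups. Since Cidec is high in wild type LPS mice, genes picked by this measure are high there by choice, and Dntt, Cfap300 and Spats2l exceeded 16 units on 5 arrays each. With the group means subtracted the most alike were Trnau1ap (0.74), Plin2 (0.73), Eci2 (0.72), Zdhhc17 (0.72), Trmt10b (0.70), 2410004B18Rik (0.70), R3hcc1l (0.67) and Gemin8 (0.66). In these values the Cidec deviations of all 10 vehicle mice are readings below 16 units, so their order carries little weight.

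Around these genes, 5 lists of other droplet, lipase, triglyceride synthesis, transport and regulator genes held 79 genes in the table, of which 70 were tested and carry adjusted p-values from limma. These lists too were chosen with earlier results of these data known, so their counts and p-values are descriptions and not an independent test. With LPS, 25 of the 70 differed between genotypes, 7 higher and 18 lower in MCAD-/-, beside 8.75% higher and 11.8% lower over all genes. With vehicle 15 differed, 8 higher and 7 lower, beside 9.81% and 6.39%, and 9 differed without MCAD-/- vehicle replicate 1 or replicate 4. LPS against vehicle changed 52 in MCAD-/- mice (10 higher, 42 lower) and 50 in wild type mice (15 higher, 35 lower), beside 38.1% higher and 27.6% lower in MCAD-/- and 40.0% and 24.0% in wild type. The median difference over the 70 was -0.24 between genotypes with LPS, -0.60 for LPS in MCAD-/- and -0.54 for LPS in wild type mice.

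Of 14 other lipase genes and activators, 6 fell and 1 rose in MCAD-/- against wild type mice given LPS. Abhd6, another monoacylglycerol lipase, fell to 69.8 units in MCAD-/-, against 202 in wild type (-1.54, SE 0.19, adjusted p = 6.02e-06), and it also fell with vehicle (-0.96, adjusted p = 0.00118). Lipa, the lysosomal acid lipase, fell to 93.7 units in MCAD-/- against 264 in wild type (-1.50, adjusted p = 3.37e-05). Faah, which hydrolyses fatty acid amides, fell by 1.18 on the log2 scale (adjusted p = 0.000274), with 1 MCAD-/- mouse below 16 units. Abhd5, the activator of Pnpla2, fell by 0.49 (adjusted p = 0.0126), a call that was lost when all probe sets of a gene were averaged (adjusted p = 0.699). Lpl, the lipoprotein lipase, was the 1 that rose (1.08, SE 0.34, adjusted p = 0.0314), at 72.3 units in MCAD-/- against 34.3 in wild type mice.

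Of 16 other droplet proteins, 5 fell and 1 rose between genotypes with LPS. Hsd17b11, a dehydrogenase of the droplet surface, fell to 577 units in MCAD-/-, against 1088 in wild type (-0.92, SE 0.12, adjusted p = 2.15e-05). Fitm2, which takes part in droplet budding, fell to 88.1 units in MCAD-/- against 133 in wild type (-0.59, adjusted p = 0.000983), and Bscl2 (seipin), which acts where droplets form, fell by 0.57 (adjusted p = 0.00945). Rab18, a small GTPase of droplets, rose by 0.55 (adjusted p = 0.00571). The calls for Bscl2 and Rab18 were each lost under at least 1 alternative (highest adjusted p = 0.0545 and 0.0937). With vehicle, 2 fell: Acsl3, an acyl-CoA synthetase of nascent droplets, at 30.4 units in MCAD-/- against 102 in wild type (-1.74, SE 0.23, adjusted p = 2.06e-05), and Plin3, the remaining perilipin tested, at 149 units in MCAD-/- against 215 in wild type (-0.53, adjusted p = 0.019).

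Of 12 triglyceride synthesis genes, 3 fell and 2 rose in MCAD-/- against wild type mice given LPS, and 2 fell and 5 rose in those given vehicle. Gpat3, a glycerol-3-phosphate acyltransferase, fell under both injections, to 44.4 units in MCAD-/- against 177 in wild type with LPS (-1.99, SE 0.28, adjusted p = 3.13e-05) and to 49.9 units in MCAD-/- against 224 in wild type with vehicle (-2.17, adjusted p = 1.35e-05). Gpam, the mitochondrial enzyme of the same step, fell with LPS to 392 units in MCAD-/- against 705 in wild type (-0.84, adjusted p = 0.00127), a call lost with the mean of its probe sets (adjusted p = 0.0872). Acsl4, an acyl-CoA synthetase, rose with LPS (0.82, adjusted p = 0.00122). With vehicle the lysophosphatidic acid acyltransferase gene Agpat5 rose by 0.87 (adjusted p = 0.000327; 0.18 with the mean of its probe sets, adjusted p = 0.215) and Lpin2, a phosphatidate phosphatase, by 0.81 (adjusted p = 0.0103).

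Of 13 genes of fatty acid uptake and export, 3 fell and 1 rose in MCAD-/- against wild type mice given LPS. Cd36, a fatty acid transporter, fell to 103 units in MCAD-/- against 447 in wild type (-2.11, SE 0.49, adjusted p = 0.0042). Its LPS response was 1.30 in MCAD-/- and 2.71 in wild type mice, and the difference between these was not past the threshold (-1.40, SE 0.69, adjusted p = 0.266). Fabp2, a fatty acid binding protein best known from the intestine, fell to 592 units in MCAD-/- against 1788 in wild type (-1.59, SE 0.18, adjusted p = 3.25e-06). Vldlr, the VLDL receptor, rose to 60.7 units in MCAD-/- against 13.6 in wild type (2.16, SE 0.63, adjusted p = 0.0201), a fold that depends on the floor because 3 wild type mice read below 16 units. Fabp4, a fatty acid binding protein of adipocytes and macrophages that stands in the adipocyte list too, rose in MCAD-/- with vehicle to 86.7 units, against 21.2 in wild type (2.03, SE 0.34, adjusted p = 0.000305), with 3 wild type mice below 16 units. Its level with LPS was 1116 units in MCAD-/- and 1013 in wild type mice.

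Of 15 regulators, 1 fell and 2 rose in MCAD-/- against wild type mice given LPS, and 2 rose in those given vehicle. Ppargc1a, the coactivator PGC-1alpha, rose in MCAD-/- under both injections, to 82.4 units against 23.2 in wild type with LPS (1.83, SE 0.33, adjusted p = 0.000493) and to 143 against 42.5 in wild type with vehicle (1.75, adjusted p = 0.000867). Creb3l3, a liver transcription factor of fasting, fell with LPS to 1332 units in MCAD-/- against 2000.3 in wild type (-0.59, adjusted p = 0.00287). Ppara rose with vehicle to 1848 units in MCAD-/- against 1238 in wild type (0.58, adjusted p = 0.0313), a call that did not hold over its probe sets, whose average gave -0.42 (adjusted p = 0.102). Macrophages and endothelial cells also express Fabp4 and Cd36. The sum of 10 macrophage markers, all above 16 units on some array, ranged over 603 to 1222 units in MCAD-/- LPS, 1700 to 2421 in MCAD-/- vehicle, 520 to 1091 in wild type LPS and 941 to 1727 units in wild type vehicle mice. The sum of 6 endothelial markers, 5 of them above 16 units on at least some arrays, ranged over 494 to 893 units in MCAD-/- LPS, 1181 to 1621 in MCAD-/- vehicle, 630 to 1111 in wild type LPS and 381 to 792 units in wild type vehicle mice. The sum of 7 stellate cell markers, 5 of them above 16 units on at least some arrays, ranged over 1763 to 2209.8 units in MCAD-/- LPS, 1905 to 2198 in MCAD-/- vehicle, 689 to 2060 in wild type LPS and 1055 to 1842 units in wild type vehicle mice. Between genotypes with vehicle the stellate and endothelial sums did not overlap, as for Plin4, Plin5 and 13.8% of all tested genes. The macrophage sums overlapped there only between 1700 and 1727 units. Of 9 tested macrophage markers, 6 were past the threshold and higher in MCAD-/- with vehicle and 0 lower, beside 9.81% higher over all genes. The same held for 4 of 5 tested endothelial and 3 of 5 tested stellate markers, again with 0 lower. The part of these cells in the differences was not tested.

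**Figure D4:**
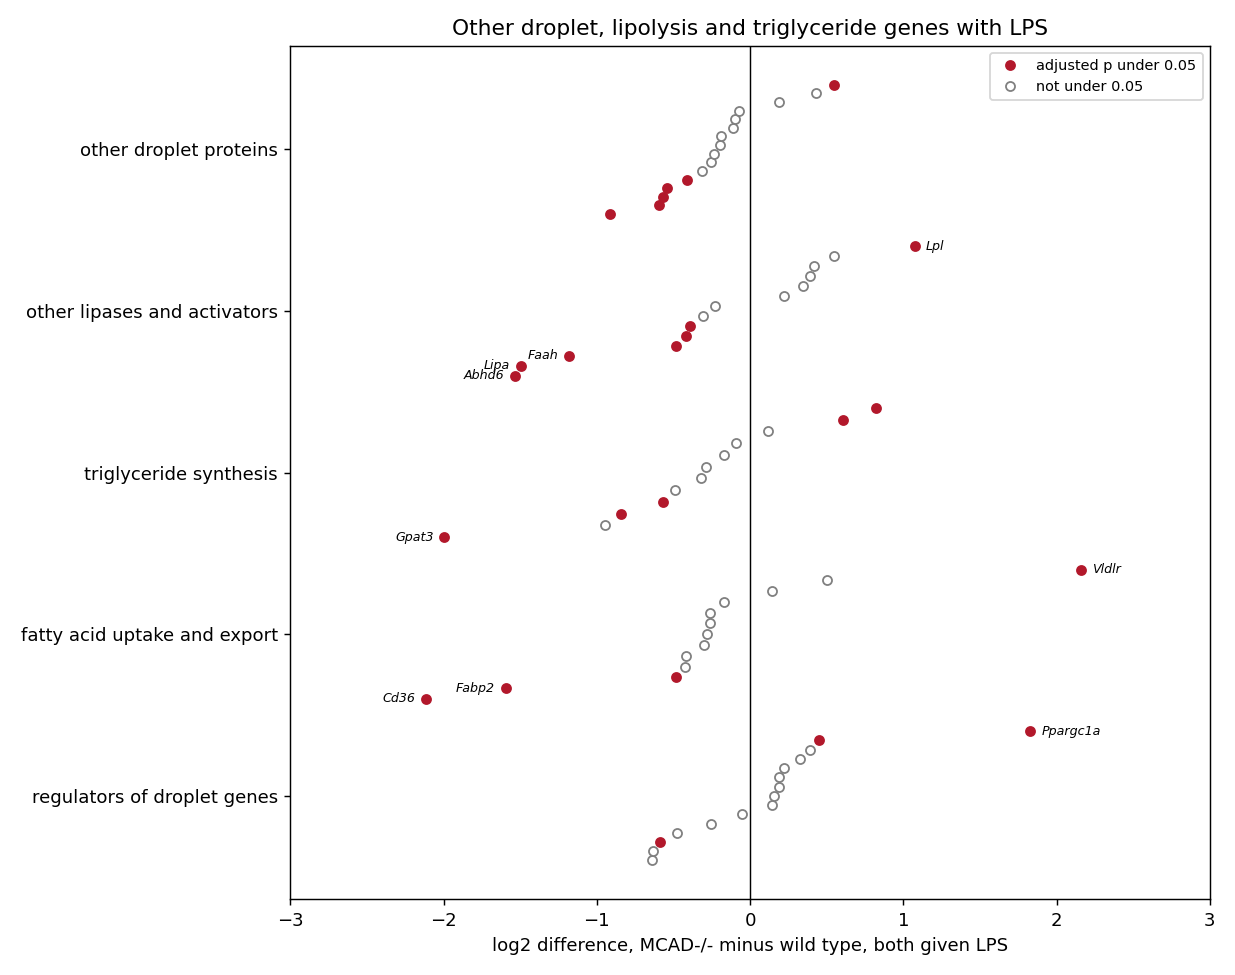
Difference between MCAD-/- and wild type mice given LPS (log2, x axis) for the 70 tested genes of the 5 surrounding lists, 1 point per gene. Filled points have a limma adjusted p under 0.05, 7 higher and 18 lower, and genes beyond 1 in either direction are named among them, with Gpat3 at -1.99 and Cd36 at -2.11.

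More of the surrounding genes fell than rose with LPS in both genotypes. Of the 14 lipase genes and activators 12 fell and 1 rose in MCAD-/-, and 10 fell and 1 rose in wild type mice. Ces1d, a carboxylesterase with triglyceride hydrolase activity, fell to 208 units with LPS against 1999 with vehicle in MCAD-/- (-3.27, SE 0.35, adjusted p = 9.75e-08) and to 142 with LPS against 1700.2 with vehicle in wild type mice (-3.58, adjusted p = 3.12e-08). Of the 12 synthesis genes 8 fell in MCAD-/- and 7 in wild type, 1 rising in each. Lpin1, a phosphatidate phosphatase and coactivator, fell by 2.64 in MCAD-/- (adjusted p = 1.08e-08) and by 1.53 in wild type mice (adjusted p = 1.42e-05). Droplet proteins were mixed, 8 falling and 4 rising in MCAD-/- and 5 falling and 4 rising in wild type mice. Mettl7a1, a methyltransferase-like protein of the droplet, fell by 2.35 in MCAD-/- (adjusted p = 6.13e-12) and 2.03 in wild type (adjusted p = 5.94e-11).

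Of the transport genes 3 rose and 5 fell in MCAD-/-, and 7 rose and 5 fell in wild type mice. Fabp5 rose by 2.42 in MCAD-/- (adjusted p = 1.44e-09) and 2.50 in wild type mice (adjusted p = 1.02e-09). Fabp4 rose by 3.69 in MCAD-/- (adjusted p = 1.70e-08) and 5.58 in wild type mice (adjusted p = 5.31e-11). Among regulators 1 rose and 9 fell in MCAD-/-, and 2 rose and 8 fell in wild type. Hif1a, the hypoxia factor known to induce Hilpda, rose by 1.53 in MCAD-/- (adjusted p = 3.26e-08) and 1.29 in wild type (adjusted p = 3.44e-07).

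The LPS response differed between genotypes for 10 of the 70 surrounding genes, 1 with a more positive and 9 with a more negative response in MCAD-/- mice, beside 1.36% and 2.76% of all genes. Fabp2 differed in direction: LPS gave -0.66 in MCAD-/- (adjusted p = 0.00377) and 0.59 in wild type mice (adjusted p = 0.00862), a difference of -1.26 (SE 0.26, adjusted p = 0.009). Acsl3 rose with LPS in MCAD-/- (1.40, adjusted p = 2.73e-05) and gave -0.15 in wild type (adjusted p = 0.593), a difference of 1.55 (SE 0.33, adjusted p = 0.0105). Lipa, Faah, Hsd17b11, Fitm2, Abhd12, Lpin2 and Gpam fell with LPS in both genotypes and further in MCAD-/-, with differences between -1.25 for Lipa (adjusted p = 0.0189) and -0.60 for Fitm2 (adjusted p = 0.039). The remaining gene, Fabp4, rose in both and less in MCAD-/- (-1.89, SE 0.48, adjusted p = 0.0309). Calls for Gpam, Fitm2, Lpin2, Fabp4, Abhd12 and Hsd17b11 were lost under at least 1 alternative setting, and leaving out 1 mouse gave between 5 and 11 genes, with 5 without wild type vehicle replicate 4 and 6 without MCAD-/- vehicle replicate 1 or wild type vehicle replicate 5.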

How the data were processed

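Liver RNA of 20 mice was hybridised to 1-colour Affymetrix arrays, and the authors deposited 1 table of intensity values per probe set on the linear scale. GCRMA made them, per the submitters' processing notes, with a version and settings not given in the sources used here. GCRMA normalizes between arrays, so all differences are relative to the whole array. Groups and replicate numbers came from the sample labels. Probe sets were named through the platform table, and a gene was its brightest probe set with 1 symbol (34945 probe sets, 18193 genes).

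Values were taken to log2 with no pseudocount. One limma fit (limma 3.58.1, R 4.3.3; lmFit and eBayes) of the 4 groups gave 5 contrasts: genotype with LPS, genotype with vehicle, LPS in MCAD-/-, LPS in wild type, and the difference between the LPS responses. Tests were two-sided, with Benjamini-Hochberg adjustment over the 8774 genes above 16 units on at least 5 arrays and a threshold of 0.05. The fit was tested on simulated data. Precision is limited by the number of arrays. The comparisons share groups of mice and are not independent of one another.

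The 10 droplet genes and all gene lists were chosen with earlier results of these data known. All 10 were named, and per surrounding list and comparison up to 4 genes with the smallest adjusted p among those past the threshold were eligible to be named, together with the 8 genes most correlated with Cidec in each of 2 ways. Lpl was named after its value was seen, and so were values of Cd36, Fabp4, Fabp2 and Acsl3 in comparisons where the rule did not name them. Alternatives were a log2(value + 16) scale, no filter, a filter of 64 units, the mean of all probe sets, centring each array on the median of its tested genes, quantile normalization, only the groups compared, the replicate number as a block, and each mouse left out in turn. Of the listed genes, Plin1, Ldaf1, Lipc, Ces3a, Ces3b, Acsl1, Cfd, Ly6g and Retnlg were not matched to a probe set with 1 symbol and were not analysed here. Promoter windows are RefSeq's for GRCm38.p6. No protein sequences were used here.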

Additional observations from a re-analysis of the deposited data

Results flagged for a closer look

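In the 40 groups of 5 mice formed by the 10 droplet genes, 5 had 1 mouse with a gap to the rest beyond Dixon's 95% critical value, where chance flags about 1 in 20 groups. Cidea read 9.49 units in wild type LPS replicate 5, the nearest mouse being at 3.87. In wild type vehicle replicate 3, Cideb read 959 units (nearest 1242) and Pnpla2 165 units (nearest 501). G0s2 read 965 units in MCAD-/- vehicle replicate 4 (nearest 1275), and Hilpda 9.67 units in wild type vehicle replicate 5 (nearest 11.6, all below 16 units).

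The LPS response differed between genotypes past the threshold for 11 of the genes examined (MCAD-/- less wild type). These were 1 of the 9 tested droplet genes and 10 of the 70 tested surrounding genes, beside 4.11% of all tested genes. The differences were -4.32 for Cidec, -1.89 for Fabp4, -1.26 for Fabp2, -1.25 for Lipa, -1.19 for Faah, -1.10 for Lpin2, -0.87 for Gpam, -0.74 for Hsd17b11, -0.70 for Abhd12, -0.60 for Fitm2 and 1.55 for Acsl3. The Cidec value was known when the gene was chosen, and the lists of the other genes were chosen with earlier results known. Several of these calls were lost under alternative settings, as given below.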

How the results depend on the processing

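Of 45 differences of droplet genes, none changed direction where called, and 11 moved by more than the spread between mice. On the log2(value + 16) scale Cidec gave -3.77, 4.14, 0.53 and -3.61 (genotype with LPS, LPS in wild type, LPS in MCAD-/-, difference between responses), Plin4 gave 0.82 for genotype with vehicle and 0.88 for LPS in wild type, and Hilpda 0.51 for LPS in MCAD-/- and 0.42 in wild type. With the mean of all probe sets Pnpla2 gave -0.66 for LPS in MCAD-/- and -0.53 for the difference between responses, and Mgll -1.97 for LPS in MCAD-/-. In these sets dim readings or a dim probe set enter the value.

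Droplet genes past the threshold between genotypes with vehicle numbered 1 in the full data, 0 on the log2(value + 16) scale and 0 with the 64-unit filter, which removes Plin4, and 2 with only the groups compared. Leaving out 1 mouse gave 1 to 2 (2 without MCAD-/- vehicle replicate 3 or wild type vehicle replicate 1). For the difference between responses it gave 1 to 3: 3 without MCAD-/- LPS replicate 1 (Cidec, G0s2, Plin5) or wild type LPS replicate 3 (Cidec, Mgll, Plin5), and 2 without wild type vehicle replicate 3 (Cidec, Pnpla2). Ranges were 3 to 6 for genotype with LPS (Cideb lost in 3 of these fits), 8 to 9 for LPS in MCAD-/- (Plin4 lost) and 6 to 7 in wild type. For LPS in MCAD-/- it was 7 with the 64-unit filter, which does not test Plin4 and Hilpda. Genotype with LPS gave 5, with Plin2 added, on the log2(value + 16) scale, with this filter and with the mean of all probe sets.

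Surrounding genes with a difference between responses numbered 10, and 5 with the mean of all probe sets. Leaving out 1 mouse gave 5 to 11, with 6 without MCAD-/- vehicle replicate 1, 5 without wild type vehicle replicate 4 and 6 without wild type vehicle replicate 5. Between genotypes with vehicle it gave 9 to 16, with 9 without MCAD-/- vehicle replicate 1 or replicate 4. It gave 21 to 28 for genotype with LPS, 48 to 54 for LPS in MCAD-/- and 46 to 53 in wild type. Of 81 named results of surrounding genes, 63 kept their call under every alternative and 18 lost it under at least 1. Among these Gpam lost its difference between responses under 18 alternatives (highest adjusted p 0.548), Fitm2 under 15 (0.0721), Lpin2 under 12 (0.0697), Fabp4 under 6 (0.0788), Abhd12 under 3 (0.155), and Hsd17b11 under 1 (0.144). Between genotypes with vehicle, Agpat3 lost it under 6 (0.441), Ppara under 6 (0.102) and Plin3 without MCAD-/- vehicle replicate 3 or 4 (0.0581), and Vldlr lost it with LPS under 4 (0.0621). Ppara reversed to -0.42 with the mean of all probe sets. The causes were not tested.

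Of 30 pairs with a shared replicate number, 7 had a correlation over 0.1 of their deviations from the group means (range -0.12 to 0.28). Pairs with different numbers were not compared, so this check cannot tell whether replicate numbers pair the mice. With the replicate number as a block, surrounding genes past the threshold numbered 27 for genotype with LPS, 15 with vehicle, 52 for LPS in MCAD-/-, 53 in wild type and 9 for the difference between responses, and droplet genes 5 (Pnpla2 added), 1, 9, 6 and 1 in the same order. Centring each array on its tested genes shifted all differences by -0.09 for LPS in MCAD-/- and -0.15 for LPS in wild type. With 5 mice per group and a 16-unit floor, small genotype differences of dim genes (Cidec with vehicle, Cidea, Hilpda) cannot be resolved.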
